A study of Arabidopsis thaliana with 4 samples.

Results

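Serine carboxypeptidase and serine carboxypeptidase-like (SCPL) genes were collected from the annotation printed on the array as the loci whose description names a serine carboxypeptidase. There were 60 such loci among the 25660 loci on the array, covered by 61 probes, and all 60 were found in the RefSeq gene table, 52 of them with a symbol other than the locus name. SCPL numbers 1 to 51 were all present, with SNG1, SCPL19 (SNG2) and BRS1 among them under their own names or synonyms. The family was singled out because 1 of its members, scpl31, has one of the largest excesses of signal in the meristem, so the values of scpl31 are given as a description without a test. The other loci entered by their description alone.

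Serine carboxypeptidases are secreted or vacuolar enzymes with a Ser-Asp-His catalytic triad that cleave amino acids from the C-terminal end of peptides. In plants a large group of SCPL proteins has changed its chemistry and works as acyltransferases, which move acyl groups such as sinapate from a glucose ester to another molecule. The sinapate esters of crucifer leaves absorb ultraviolet light and are stored in the vacuole. The descriptions on the array place the Arabidopsis loci by their likeness to the cereal enzymes called serine carboxypeptidase I, II and III: 21 loci were classed here as type I, which holds the acyltransferases SNG1 and SNG2, 26 as type II, which holds BRS1, 4 as type III and 3 as other members of the peptidase family S10. A further 6 loci belong to family S28, whose best known animal member is the lysosomal prolylcarboxypeptidase.

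RNA was taken from meristem-enriched tissue and from young leaves, both dissected by hand from clv3-9 plants, and hybridised to 4 Agilent 44k oligonucleotide arrays in a single dye, with 2 biological replicates of each tissue. The plants were in the Columbia background, 9 weeks old and grown on soil in days of 8 h light and 16 h dark. The clv3-9 allele is a point mutation in the coding region of CLV3, a peptide signal that limits the size of the stem cell pool in the shoot apex. Both tissues carried it, so neither stands for the wild type, and the meristem sample was enriched for meristem rather than made up of it alone.

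Each level below is the log2 of the processed fluorescence intensity, scaled to each array's 75th percentile, and each difference is meristem minus leaf on that log2 scale. The levels of different genes come from different probes and were not set against each other. The 75th percentile of the processed intensity was 874 and 978 in the meristem samples and 606 and 794 in the leaf samples, and all arrays lay on 1 slide read in 1 scan. All 6 meristem markers (STM, CLV3, WUS, KNAT1, KNAT2 and KNAT6) were higher in the meristem, with a summed log2 level of 13.96 and 14.37 in the meristem against 8.07 and 8.19 in the leaf. All 4 leaf markers (2 Rubisco small subunits, a chlorophyll-binding protein and the carbonic anhydrase CA1) were lower in the meristem, at 16.36 and 15.87 in summed level against 19.53 and 19.28 in the leaf; CA1 was well above background on 1 of the meristem arrays. The floral identity genes LFY, AP1 and PI, 3 of the 4 on the floral list, were also higher in the meristem (summed level 9.73 and 10.13, against 6.61 and 6.45 in the leaf), as was PDF1 of the 3 epidermis genes. Of the vascular lists, 2 of 5 xylem genes and 1 of 3 phloem genes were lower in the meristem and the others did not pass the test. The part of these cell types in the results was not tested, and in bulk tissue fewer cells of a type and less RNA per cell cannot be told apart.

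The family held members higher in either tissue, as did the loci of the array in general. A locus was tested when its background-subtracted intensity was above 0 on both arrays of either tissue, which 55 of the 60 loci met. Of these, 27 passed an adjusted p of at most 0.05 (49.1%, beside 48.6% of all loci tested), 12 with the higher signal in the meristem and 15 with the higher signal in the leaf (limma, Benjamini-Hochberg over all 23254 loci tested). The shares were 21.8% and 27.3% of the members tested, beside 27.1% and 21.6% of all loci tested; without scpl31 the meristem count was 11. With a further demand that the difference reach 2 in size (4-fold), 5 members (4 without scpl31) were called for the meristem and 7 for the leaf, which is 9.09% (7.41% without scpl31) and 12.7%, beside 6.55% and 6.42% of all loci. Arrays of the tissues did not overlap for 43 of the 55 members (78.2%, beside 79.3% of all loci). With scaling to the spike-in controls 27 members passed for the meristem and 12 for the leaf, beside 65.6% and 11.5% of all loci tested. With normexp background correction 1 and 8 members passed, beside 2.35% and 5.61% of all loci. The counts are small, and the family's shares were not tested against those of all loci.

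Differences among the members ranged from -3.93 for SNG1 to 7.96 for scpl31. Their median was -0.20, against 0.10 for all loci tested. With no scaling between arrays it was 0.22, against 0.51 for all loci. With scaling to the spike-in controls it was 0.57, against 0.86 for all loci. The sign of the family median, but not its place below that of all loci, depended on these scalings. By type, of 20 type I members tested 4 were higher in the meristem (20%) and 5 in the leaf (25%). The 23 type II members gave 8 higher in the meristem (34.8%) and 4 in the leaf (17.4%). Without scpl31 the type II meristem count was 7, and the shares were 31.8% and 18.2%. All loci tested gave 27.1% and 21.6%. All 3 type III members tested were higher in the leaf, with SCPL49 at the threshold (adjusted p = 0.0497 by limma). Also higher in the leaf were 1 of the 3 other S10 loci and 2 of the 6 S28 loci (33.3% each). Whether the types differ from each other was not tested.

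**Figure D1:**
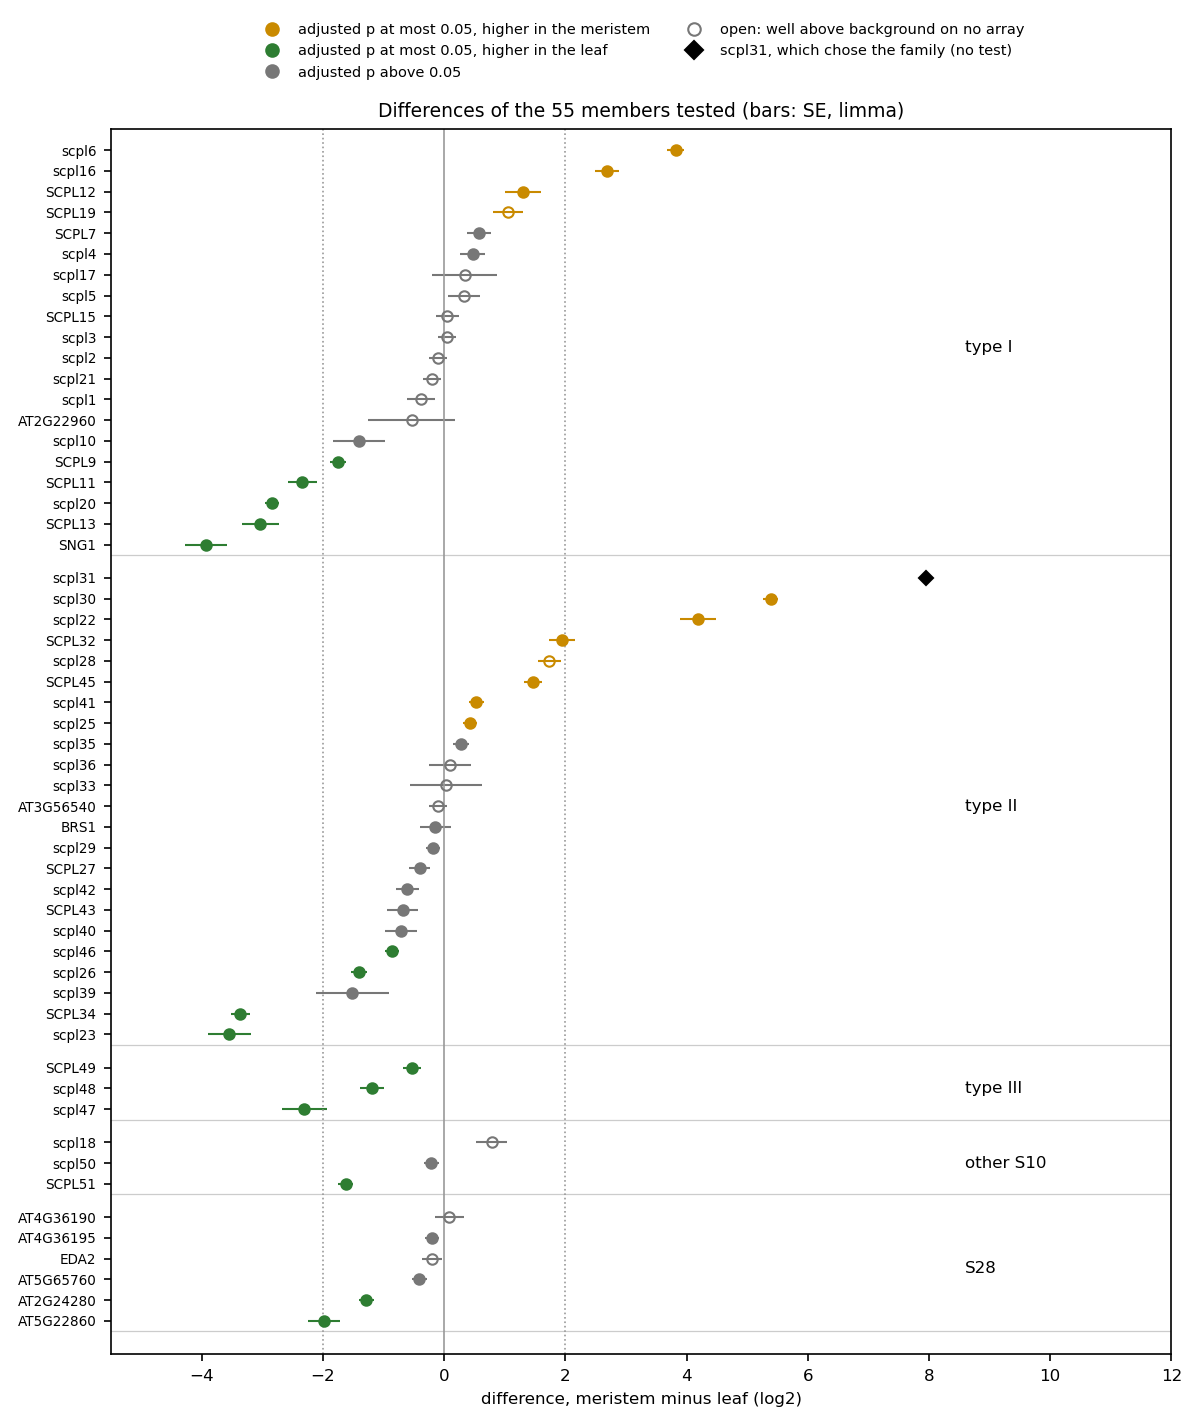
Log2 difference, meristem minus leaf, of each of the 55 members tested, grouped by type, with the SE from limma as bars; dotted lines mark a difference of 2 in size and open symbols mark probes well above background on no array. Members lie on both sides of 0 in types I and II, from -3.93 (SNG1) to 7.96 (scpl31), while the 3 type III members lie below 0.

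Signal strength limited part of the family. The scanner software called 38 of the 60 loci (63.3%, beside 77.8% of all loci) well above background on both arrays of at least 1 tissue, 32 of them on all 4 arrays, and called 20 on none. Of the 32, 7 were higher in the meristem and 13 in the leaf at the adjusted p, and 12 passed in neither direction. The shares were 21.9% and 40.6% (19.4% and 41.9% without scpl31), beside 28.6% and 23.5% of the 18554 loci tested that were well above background on all arrays. Together 62.5% of the 32 passed (61.3% without scpl31), beside 52.1% of those loci. Another 5 were well above background in 1 tissue only, scpl6, SCPL12 and scpl22 in the meristem and scpl23 and scpl47 in the leaf. The remaining 3 had the background call on part of the arrays: SCPL43 on both leaf arrays and 1 meristem array (-0.69, adjusted p = 0.0876), scpl39 on 1 leaf array (-1.52, adjusted p = 0.105) and scpl14 on 1 meristem array. SCPL43 was at -0.97 without meristem replicate 1 and scpl39 at -2.32 without meristem replicate 2. A fit with 1 meristem array holds no spread between meristem replicates, so no call was drawn from these values. For the 5 loci measured in 1 tissue only, a fold is given as a lower bound: the mean level of the brighter tissue over the mean, in the dimmer tissue, of the lowest level that counted as well above background on each array or of the probe's own level if that was higher. The 5 loci not tested were scpl14, scpl37, scpl38, scpl44 and AT5G22960, with differences between -0.20 and 1.44; scpl14 rested on a level of 4.37 on the first meristem array, against 1.21 on the second and 1.50 and 1.20 on the leaf arrays.

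Among the type II loci, scpl31 (AT1G11080; probe at chr1:3695194-3695253 on the minus strand, in the coordinates of the array file, which names no genome build) had a level of 11.74 and 12.51 on the meristem arrays, against 4.42 and 3.91 on the leaf arrays. All 4 arrays were well above background and the tissues were far apart. The difference of 7.96, or 249-fold, was the largest in favour of the meristem among the 18554 loci tested that were measured on all 4 arrays. Leaving out any one array kept it between 7.57 and 8.34, and normexp background correction with an offset of 50 gave 5.21.

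The second type II locus with a large meristem excess, scpl30 (AT4G15100; chr4:8629466-8629525, plus strand), had 8.83 and 8.75 in the meristem and 3.40 and 3.40 in the leaf. Replicates were nearly identical in both tissues, and all 4 arrays were well above background. The leaf levels were near the lowest that counted as well above background on the leaf arrays (3.22 and 2.93), so the fold rests on a dim leaf signal. The difference was 5.39 (adjusted p = 0.000464 by limma, SE 0.12), 41.9-fold, and it ranked 39 of the 18554 loci in favour of the meristem. With normexp it was 2.23 and no longer passed (adjusted p = 0.121).

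A further type II locus, scpl22 (AT2G24000; chr2:10221036-10221095, plus strand), had 6.13 and 6.11 in the meristem, with 2.33 and 1.54 in the leaf, where neither array was well above background. It was at least 8.26-fold higher in the meristem (limma, adjusted p = 0.00124). SCPL32 (AT1G61130) lay just short of a difference of 2, with 5.47 and 5.07 in the meristem and 3.48 and 3.18 in the leaf, a difference of 1.94 (adjusted p = 0.00323, SE 0.21). SCPL45 (AT1G28110) was at 10.84 and 11.00 in the meristem and 9.35 and 9.57 in the leaf, a difference of 1.46 (adjusted p = 0.00280, SE 0.15). The excesses of SCPL32 and SCPL45 were several times their SE. With normexp SCPL32 was at 0.17 (limma, adjusted p = 0.958) and SCPL45 at 1.33 (adjusted p = 0.0541), and neither passed. Under the methods' t-test adjusted by Benjamini-Hochberg SCPL32 also did not pass (adjusted p = 0.0579). The excesses of scpl41 (0.53, limma, adjusted p = 0.0237) and scpl25 (0.43, adjusted p = 0.0462) were small and depended on the processing. With normexp scpl41 was at -0.028. For scpl25 the difference did not pass with median scaling (0.13, limma, adjusted p = 0.427) or normexp (0.44, adjusted p = 0.222). For scpl28 the adjusted p was 0.00347, but no array was well above background, so no fold is given.

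Leaf-higher loci of type II were fewer. SCPL34 (AT5G23210; chr5:7814744-7814803, plus strand) had 8.28 and 8.01 in the meristem and 11.57 and 11.45 in the leaf, a difference of -3.36 (adjusted p = 0.000616, SE 0.15), so that the leaf level was 10.3-fold higher. The gap between the tissues was far wider than the spread of either pair of replicates. The locus scpl23 (AT2G24010; chr2:10224153-10224212, plus strand) had 0.85 and 1.83 in the meristem, neither well above background, and 4.93 and 4.84 in the leaf. It was at least 3.96-fold higher in the leaf (adjusted p = 0.00278). Smaller deficits in the meristem were measured for scpl26 (-1.41, SE 0.13, adjusted p = 0.00220) and scpl46 (-0.86, SE 0.12, adjusted p = 0.00664, all by limma with Benjamini-Hochberg adjustment). The scpl46 difference did not pass with no scaling (-0.45, limma, adjusted p = 0.328) or with spike-in scaling (-0.093, adjusted p = 0.523). It did not pass with normexp either (-0.79, adjusted p = 0.0756), and was -0.81 without leaf replicate 1. BRS1 (AT4G30610), a secreted carboxypeptidase known as a suppressor of a brassinosteroid receptor mutant, had 8.85 and 8.20 in the meristem and 8.65 and 8.69 in the leaf. Its tissues overlapped, and its difference of -0.15 (adjusted p = 0.655, SE 0.25) did not pass; its sign turned with no scaling (0.27) and with spike-in scaling (0.62).

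**Figure D2:**
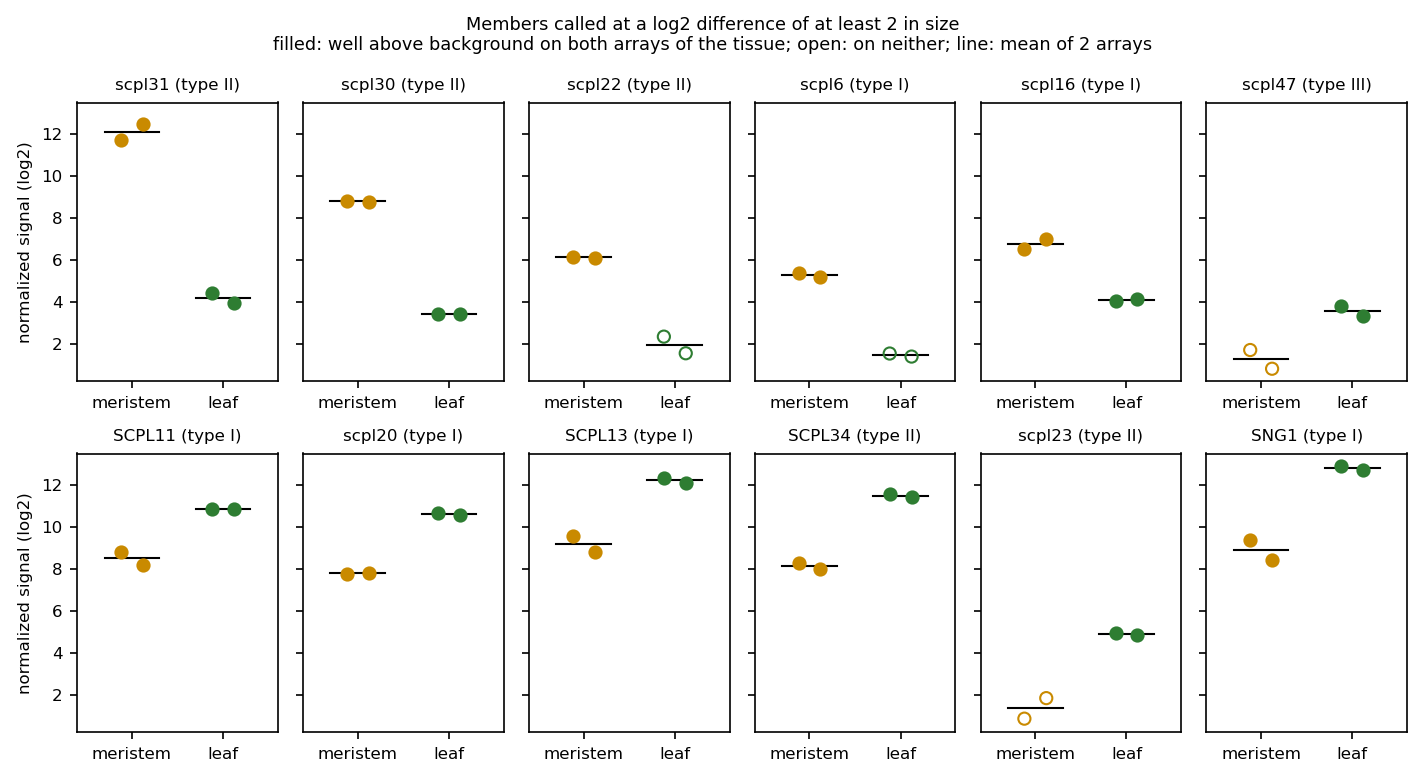
Normalized log2 level of the 12 members called at a difference of at least 2 in size, with 1 point per array, meristem left of leaf, the mean of 2 arrays as a line, and open points where the probe was well above background on neither array of that tissue. The tissues do not overlap for any of the 12, which the choice by difference favours (79.3% of all loci tested do not overlap). In the dimmer tissue the level is below the background call for scpl22, scpl6, scpl47 and scpl23.

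Type I holds the acyltransferases. SNG1 (AT2G22990, also SCPL8; chr2:9796601-9796660, plus strand) makes sinapoylmalate, the main sinapate ester of Arabidopsis leaves, from sinapoylglucose and malate. Its level was 9.37 and 8.43 in the meristem and 12.91 and 12.75 in the leaf. The difference of -3.93 (adjusted p = 0.00200 by limma, SE 0.35) made it 15.3-fold higher in the leaf, the largest deficit in the meristem among the members measured on all arrays. The gap exceeded the spread of the meristem replicates, and the value was between -4.40 and -3.46 when any one array was left out.

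SNG1 stands in a row of 6 type I genes without other protein-coding genes between them, in the order AT2G22960, SCPL11, SCPL13, SNG1, scpl10 and SCPL9. Of the 6, 4 passed as higher in the leaf, beside 21.6% of all loci tested. SCPL13 (AT2G22980; chr2:9790095-9790154, plus strand) had 9.60 and 8.80 in the meristem and 12.35 and 12.12 in the leaf, a difference of -3.03 (adjusted p = 0.00283, SE 0.31). SCPL11 (AT2G22970; chr2:9785243-9785302, plus strand) had 8.82 and 8.21 in the meristem and 10.85 and 10.86 in the leaf, a difference of -2.34 (adjusted p = 0.00287, SE 0.24). SCPL9 (AT2G23010), a sinapoylglucose:sinapoylglucose sinapoyltransferase, had 8.10 and 7.94 in the meristem and 9.72 and 9.82 in the leaf, a difference of -1.75 (adjusted p = 0.00138 by limma, SE 0.13). All arrays were well above background for these loci. Their tissues did not overlap, as in 79.3% of all loci tested.

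Another gene of the row, scpl10 (AT2G23000), encodes a sinapoylglucose:anthocyanin sinapoyltransferase. It had 7.46 and 6.24 in the meristem and 8.24 and 8.28 in the leaf. Every leaf value was above every meristem value, but the meristem replicates lay far apart (SD 0.86) and the difference of -1.40 (adjusted p = 0.0579, SE 0.43) did not pass. It was -2.02 without meristem replicate 1 and -0.79 without meristem replicate 2. With 1 meristem array the fit holds no spread between meristem replicates, so no call was drawn from these values. The last of the 6, AT2G22960, was well above background on no array.

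In all 5 genes of the row that were well above background the first meristem array read higher than the second, with a meristem SD of 0.11 to 0.86, against a leaf SD of 0.01 to 0.16. The first meristem array also read higher for 22 of the 32 members well above background on all arrays, beside 49.6% of all such loci. Among members past the adjusted p it read higher for 10 of 15 leaf-higher and 8 of 12 meristem-higher loci. By list it read higher for 4 of 4 leaf, 3 of 3 epidermis, 2 of 4 floral and 1 of 6 meristem genes. It read higher for 0 of 5 xylem genes, 0 of 3 phloem genes and 5 of the 18 sinapate route loci compared below. The part of leaf or epidermis cells in the result was not tested. Without meristem replicate 1 the differences of SCPL11, SCPL13, SNG1 and SCPL9 were -2.65, -3.43, -4.40 and -1.83. Without meristem replicate 2 they were -2.04, -2.63, -3.46 and -1.68. With 1 meristem array the fit holds no spread between the meristem replicates, so it does not test that spread.

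Outside the row, scpl20 (AT4G12910; chr4:7550759-7550901, minus strand) had 7.78 and 7.80 in the meristem and 10.67 and 10.60 in the leaf. Its replicates were close in both tissues and its difference was -2.84 (adjusted p = 0.000564, SE 0.12), 7.17-fold higher in the leaf. Under normexp background correction it was still called, as were SNG1, SCPL13, SCPL11 and SCPL34. Beside scpl31 no other member was, and the differences of these 5 leaf-higher loci then ranged from -3.71 for SNG1 to -2.10 for SCPL11.

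Among type I loci, scpl16 and scpl6 were called higher in the meristem. For scpl16 (AT3G12220; chr3:3897059-3897118, minus strand) the level was 6.53 and 6.99 in the meristem and 4.04 and 4.11 in the leaf, a difference of 2.68 (adjusted p = 0.00133, SE 0.20). scpl6 (AT1G73270; chr1:27553279-27553431, minus strand) had 5.36 and 5.18 in the meristem and, below the background call, 1.52 and 1.38 in the leaf, and was at least 4.58-fold higher in the meristem (limma, adjusted p = 0.000505). Under normexp neither passed, with differences of 0.70 and 0.35. SCPL12 (AT2G22920) was measured in the meristem only and was at least 1.99-fold higher there (limma, adjusted p = 0.0244). It did not pass with quantile normalization (1.15, limma, adjusted p = 0.0504) or with the replicate number as a block (adjusted p = 0.0533). The SCPL12 difference of 1.30 was 1.11 without meristem replicate 1 and 0.96 without leaf replicate 1. SCPL19 (SNG2, AT5G09640), which makes sinapoylcholine in seeds, passed at an adjusted p of 0.0286 (limma) with no array well above background. Its sign turned with normexp (-0.15). SCPL7 (AT3G10450) had 9.45 and 9.90 in the meristem and 9.02 and 9.17 in the leaf, which did not pass (0.58, SE 0.20, adjusted p = 0.0745). The SCPL7 difference was 0.80 without meristem replicate 1 and 0.35 without meristem replicate 2.

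The 3 type III loci tested, which resemble the carboxypeptidase III of cereals, were all lower in the meristem. scpl47 (AT5G22980; chr5:7690424-7690483, plus strand) had 1.69 and 0.80 in the meristem, neither well above background, and 3.81 and 3.30 in the leaf, and was at least 1.58-fold higher in the leaf (adjusted p = 0.00961). scpl48 (AT3G45010) had 9.38 and 9.82 in the meristem and 10.70 and 10.89 in the leaf, a difference of -1.19 (adjusted p = 0.0108, SE 0.20). SCPL49 (AT3G10410) had 11.38 and 11.48 in the meristem and 11.82 and 12.10 in the leaf, a difference of -0.53 (adjusted p = 0.0497 by limma, SE 0.15). This last call stood at the threshold: it did not pass with quantile normalization (-0.42, limma, adjusted p = 0.0735) or normexp (-0.45, adjusted p = 0.356), and scaling to the spike-in controls turned its direction. With each array left out in turn the SCPL49 difference ranged from -0.67 to -0.39.

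Of the other S10 loci, SCPL51 (AT2G27920), described as similar to a retinoid-inducible carboxypeptidase of the mouse, had 8.01 and 8.15 in the meristem and 9.70 and 9.71 in the leaf, a difference of -1.63 (adjusted p = 0.00144, SE 0.12). Among the S28 loci, AT5G22860 stood just short of the size threshold with 7.15 and 6.46 in the meristem and 8.80 and 8.80 in the leaf, a difference of -1.99 (adjusted p = 0.00573, SE 0.26). Its second probe read 6.28 and 5.70 in the meristem and 7.76 and 7.87 in the leaf, a difference of -1.83, so both probes ran the same way. AT2G24280 had 9.92 and 9.75 in the meristem and 11.13 and 11.11 in the leaf, a difference of -1.28 (adjusted p = 0.00282 by limma, SE 0.13). The other 4 S28 loci, EDA2 among them, did not pass.

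Members that are close in the gene order were compared next. With at most 2 protein-coding genes between neighbours, 28 of the 60 loci fell into 9 groups on all 5 chromosomes. The leaf-higher row around SNG1 was the only group with more than 1 member passing in the same direction. It was also the largest, with 6 members, 5 of them well above background on all arrays. Outside it, only the group of scpl41 and scpl42 had more than 1 member well above background on all arrays, so the groups are not alike in what they could show. In other groups neighbours parted: scpl22 and scpl23, which are adjacent and of the same type, were called in opposite directions, and next to scpl28, with its dim meristem signal, lay scpl26, which was higher in the leaf. On chromosome 1, scpl6 passed and its neighbours scpl3, scpl5, scpl2 and scpl4 did not (-0.10 to 0.47), and of these only scpl4 was well above background on any array. On chromosome 3, scpl16 passed, while scpl17 and SCPL15, in the same group, were well above background on no array. Neighbours of this kind can be close in sequence, and cross-hybridisation between their probes was not tested.

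**Figure D3:**
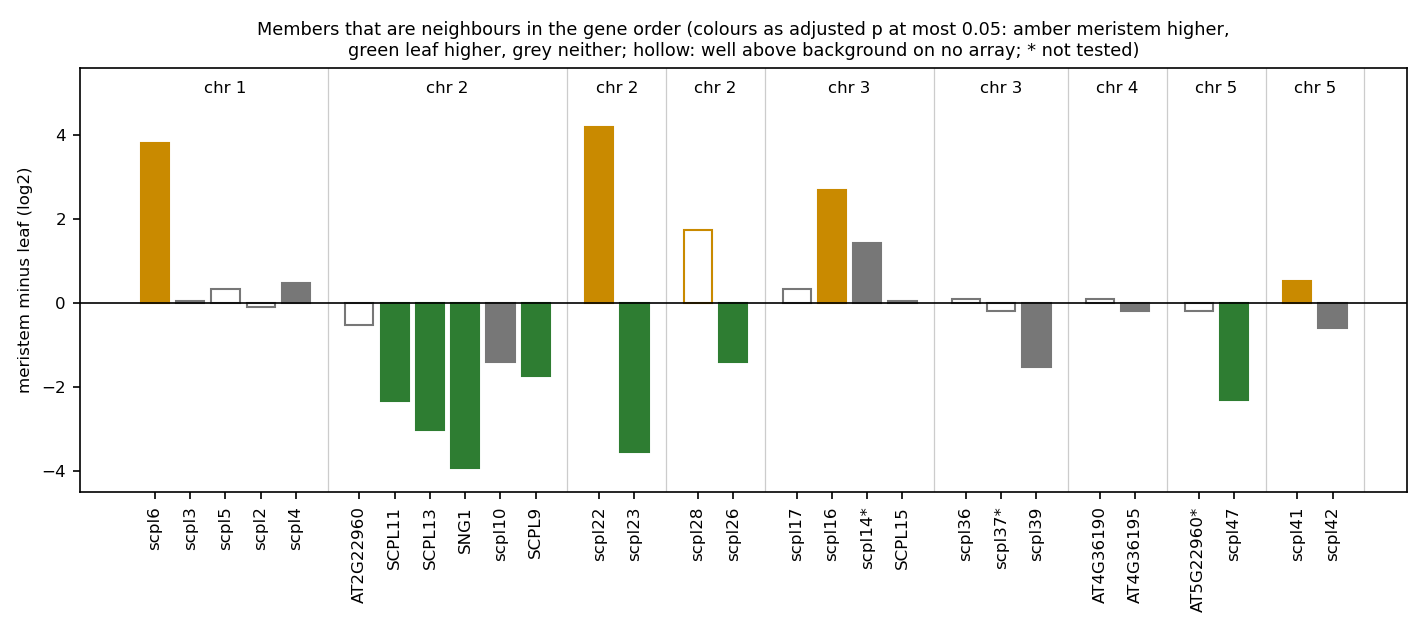
Log2 difference, meristem minus leaf, of the 28 members in 9 groups of neighbouring genes, in gene order along each chromosome; amber bars (meristem higher) and green bars (leaf higher) passed at an adjusted p of at most 0.05, grey bars passed in neither direction, hollow bars were well above background on no array and asterisks mark loci not tested. All genes of the row with SNG1 lie below 0, while scpl22 and scpl23 lie on opposite sides.

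SNG1 and SCPL19 use sinapoylglucose, and the genes of the route that leads to it were compared from a list of 18 loci that includes both. All were tested, 17 of them well above background on all arrays, and 5 of the 18 passed as higher in the meristem and 6 as higher in the leaf. These shares, 27.8% and 33.3%, stood beside 27.1% and 21.6% of all loci tested. Steps early in the route ran both ways. Cinnamate 4-hydroxylase C4H, an entry step, had 14.19 and 14.74 in the meristem and 12.72 and 12.82 in the leaf, a difference of 1.70 (adjusted p = 0.00545, SE 0.22), and PAL1 and 4CL2 were also higher in the meristem (0.49 and 0.95), while 4CL1 and 4CL3 were higher in the leaf (-0.80 and -2.50). The 4CL3 level was 6.68 and 5.39 in the meristem and 8.53 and 8.55 in the leaf (limma, adjusted p = 0.0138).

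Of the later steps, 2 that lead to free sinapate were higher in the leaf. FAH1, the ferulate 5-hydroxylase needed for sinapate, had 9.53 and 9.51 in the meristem and 11.20 and 11.27 in the leaf, a difference of -1.71 (adjusted p = 0.00119, SE 0.12). REF1, the aldehyde dehydrogenase that makes sinapate from its aldehyde, had 11.43 and 11.49 in the meristem and 12.96 and 13.03 in the leaf, a difference of -1.54 (adjusted p = 0.00150 by limma, SE 0.12). For the O-methyltransferase COMT1 the difference of 0.28 (adjusted p = 0.166, SE 0.14) did not pass.

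The UGT84A glucosyltransferases, which form glucose esters of sinapate and related acids, were split. UGT84A1 was called higher in the meristem, with 6.07 and 6.23 there and 3.91 and 4.16 in the leaf, a difference of 2.12 (adjusted p = 0.00130, SE 0.15). UGT84A4 had 6.51 and 6.24 in the meristem and 7.97 and 8.02 in the leaf, a difference of -1.62 (adjusted p = 0.00214, SE 0.15). UGT84A2, the main sinapate glucosyltransferase, had 11.10 and 11.43 in the meristem and 10.70 and 10.79 in the leaf, and its difference of 0.52 (adjusted p = 0.0601 by limma, SE 0.16) did not pass. UGT84A3 had 8.47 and 9.80 in the meristem and 10.19 and 10.29 in the leaf, and with its meristem replicates far apart the difference of -1.11 (adjusted p = 0.121, SE 0.47) did not pass either. SNG1, the step that uses the ester, had the largest difference of the 18 loci in either direction.

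**Figure D4:**
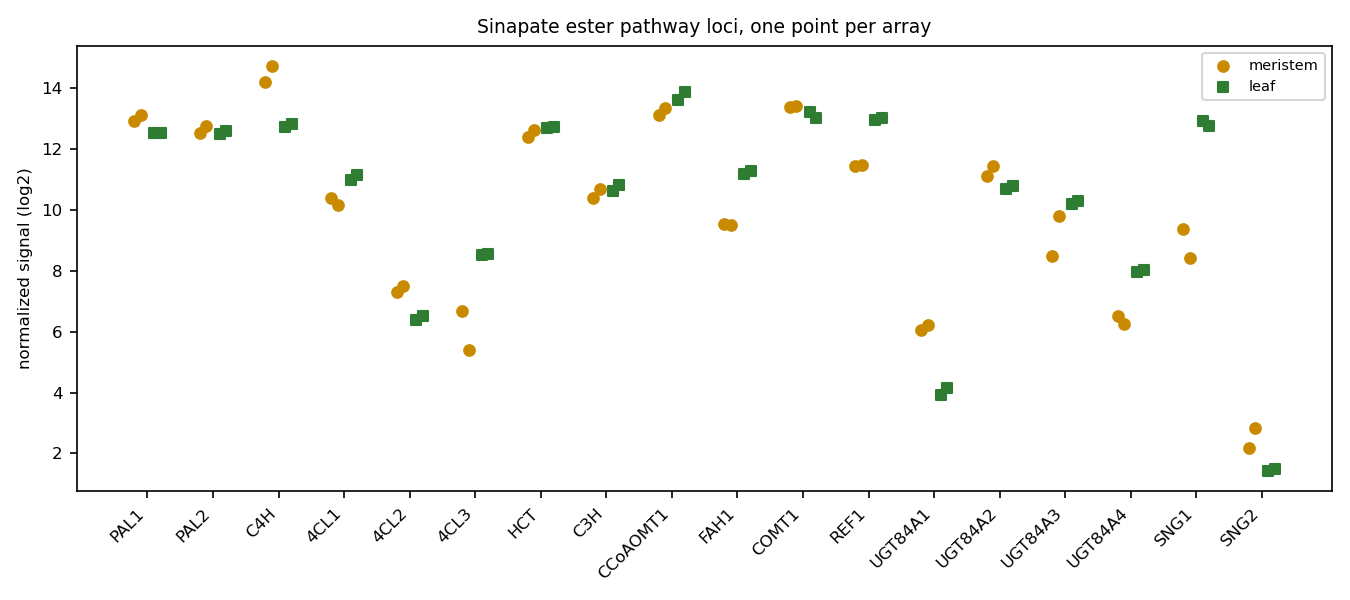
Normalized log2 level of 18 loci of the sinapate ester route, 1 point per array, with meristem arrays (amber circles) left of leaf arrays (green squares) at each locus; heights of different loci come from different probes and are not comparable. FAH1, REF1, UGT84A4 and SNG1 lie lower in the meristem, and C4H and UGT84A1 lie higher.

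The 28 members tested that passed in neither direction were of varied kinds. The 12 of them well above background on all arrays had differences from -1.40 (scpl10) to 0.58 (SCPL7). scpl35 (0.28, SE 0.14), scpl29 (-0.19, SE 0.12), scpl50 (-0.21, SE 0.13) and AT4G36195 (-0.20, SE 0.12) were within 0.3 of 0, with adjusted p between 0.161 and 0.255 (limma, Benjamini-Hochberg), which does not show that the tissues had equal levels. Their direction depended on the scaling: with scaling to the median scpl50 was at -0.51 (adjusted p = 0.0319), scpl29 at -0.48 (0.0334) and AT4G36195 at -0.50 (0.0329), and with scaling to the spike-in controls they were at 0.56 (0.0226), 0.58 (0.0151) and 0.57 (0.0130). For scpl35 median scaling gave -0.018 and spike-in scaling 1.05 (adjusted p = 0.00311). In this group scpl42 (-0.61, adjusted p = 0.0549) and AT5G65760 (-0.41, adjusted p = 0.0543) stood just short of the threshold. Without meristem replicate 1, scpl42 was at -0.81 and scpl40 at -1.04.

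How far the differences depend on the treatment of the arrays was compared for the 12 called members. The direction of each was the same under the 75th percentile, median, spike-in and quantile scaling, with no scaling, and with normexp. Median, spike-in and no scaling move the difference of every locus by the same amount (-0.30, 0.77 and 0.42). They could not turn a difference of at least 2 in size, so only quantile scaling and normexp could have changed a direction. scpl31 ranged from 5.21 to 8.73 and SNG1 stayed below -3 throughout. With normexp scpl22 (0.49), scpl6 (0.35), scpl16 (0.70), scpl23 (-0.50) and scpl47 (-0.31) came to within 1 of 0 and, like scpl30, did not pass.

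**Figure D5:**
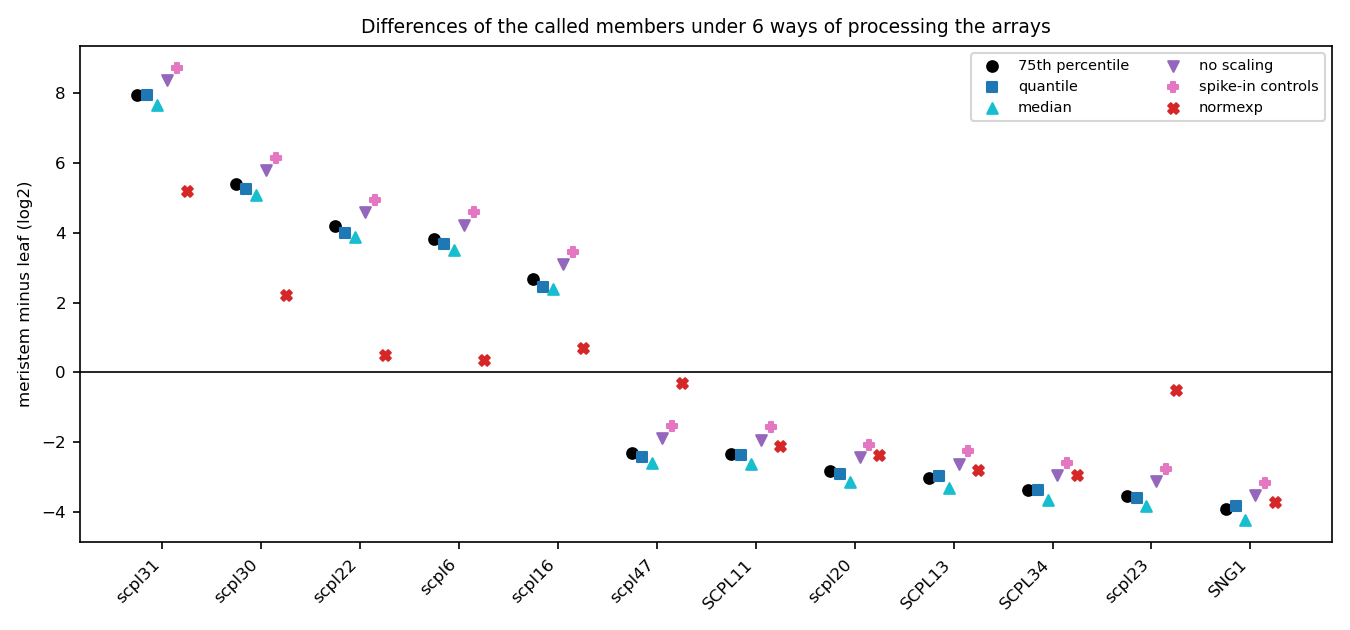
Log2 difference, meristem minus leaf, of the 12 called members under 6 ways of processing the arrays. Every member keeps its side of 0, which the choice by size fixes in advance for median, spike-in and no scaling. With normexp background correction (red crosses) scpl22, scpl6, scpl16, scpl23 and scpl47 move to within 1 of 0.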

How the data were processed

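The authors deposited the Feature Extraction 9.5.3.1 output of each array, with fluorescence intensities per spot: mean and background signals, and a processed signal corrected for background in which dim spots receive a small positive surrogate. The study describes its data as normalized by the service provider; between arrays, the deposited intensities carry no scaling. From 37685 spots, 37478 probes were read, of which 26231 name a locus (25660 loci). Outlier spots (10 to 12 per array) were left out. Probe positions are those of the array file, which names no genome build. RefSeq gene records (TAIR10.1) served only for symbols and gene order.

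The log2 processed intensity was scaled to each array's 75th percentile, and the brightest probe stood for a locus. Tissues were compared with limma 3.58.1 (lmFit, eBayes) in R 4.3.3 (data.table, version 1.17.8), over the 23254 loci tested. For 2 arrays against 2 the smallest two-sided p of an exact permutation test is 0.333; the tests rest on limma's moderated spread (prior SD 0.158 with 2.26 degrees of freedom; the residual SD pooled over loci was 0.314), and the number of arrays limits the precision. Over loci, the meristem replicates correlated at 0.993 and the leaf replicates at 0.995. The fit was also run on simulated data with spreads drawn from its own prior, which does not test that prior or the scaling. Figures were drawn with Python 3.11.15, pandas 2.3.3 and matplotlib 3.10.9.

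The members and lists were chosen with earlier results of these data known. Named were scpl31, all called members, members past the adjusted p by size, the sinapate route and the tissue markers; BRS1, scpl10, SCPL7 and the few other members that did not pass were named after their values were seen. Alternatives were scaling to the median, to 7 kinds of spike-in probe or not at all, quantile normalization, normexp with an offset of 50, other filters, the mean of all probes, each array left out, the replicate number as a block, and the methods' t-test.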

Additional observations from a re-analysis of the deposited data

How the results depend on the processing

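The 5 members called higher in the meristem (1524 of all loci) became 9 with scaling to the spike-in controls (3003 loci) and 1 with normexp background correction (252 loci). The 7 called higher in the leaf (1492 of all loci) became 2 (SCPL34 and scpl20) under the methods' t-test once adjusted by Benjamini-Hochberg (1152 loci). Of the members past the adjusted p, the 12 higher in the meristem (27.1% of all loci) became 27 with spike-in scaling (65.6% of all loci), 1 with normexp (2.35%) and 7 under the adjusted t-test (2808 loci). The 15 higher in the leaf (21.6% of all loci) became 24 with median scaling (29.7%), 8 with normexp (5.61%) and 8 under the adjusted t-test (2802 loci). The 11 sinapate route loci became 3 with normexp, where 2.35% and 5.61% of all loci passed for the meristem and the leaf. They became 4 under the adjusted t-test, where 12.1% and 12% of all loci passed. The median difference of -0.20 became -0.49 with median scaling, 0.22 with no scaling, 0.57 with spike-in scaling and -0.47 over loci well above background. With median, no and spike-in scaling the difference of every locus moved by the same amount (-0.30, 0.42 and 0.77). The median of all loci tested went from 0.10 to -0.20, 0.51 and 0.86. The cause of the lower value over loci well above background was not tested. With each array left out in turn, the median of the members ranged from -0.23 to -0.17. Counts from those fits are not given, because 1 tissue then has 1 array and no spread of its own. Over the single members and settings, 634 values kept their direction and side of the threshold, 65 lost the call, 44 gained one in the same direction and 63, in 30 members, changed sign. Of the 63, 5 were of members that had passed, and 7, all with spike-in scaling, passed in the other direction.

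Signs turned with normexp for SCPL12 (-0.11), scpl28 (-0.13), SCPL19 (-0.15) and scpl41 (-0.028), which had passed, and for scpl18 (-0.24), scpl3 (-0.20), scpl5 (-0.14), scpl4 (-0.13), scpl17 (-0.23), SCPL15 (-0.15), scpl33 (-0.24), scpl36 (-0.21) and AT4G36190 (-0.22). With spike-in scaling they turned for SCPL49 (0.24), which had passed, for scpl50 (0.56), scpl2 (0.66), EDA2 (0.56), scpl21 (0.57), AT3G56540 (0.67), scpl29 (0.58) and AT4G36195 (0.57), which then passed, and for SCPL43 (0.082), AT2G22960 (0.23), SCPL27 (0.36), scpl40 (0.053), BRS1 (0.62), scpl1 (0.39), scpl42 (0.16) and AT5G65760 (0.36). With no scaling they turned for scpl50 (0.21), scpl2 (0.31), EDA2 (0.21), SCPL27 (0.0093), scpl21 (0.22), AT3G56540 (0.31), BRS1 (0.27), scpl29 (0.23), AT4G36195 (0.21), scpl1 (0.034) and AT5G65760 (0.0065). Median scaling turned scpl3 (-0.25), SCPL15 (-0.25), scpl33 (-0.26), scpl36 (-0.20), AT4G36190 (-0.21) and scpl35 (-0.018), and quantile normalization turned scpl2 (0.075), scpl33 (-0.078), AT3G56540 (0.089) and AT4G36190 (-0.022). With an array left out the sign turned for scpl3 (-0.092 to 0.18), scpl2 (-0.23 to 0.022), AT2G22960 (-1.47 to 0.40), scpl17 (-0.40 to 1.09), SCPL15 (-0.14 to 0.23), scpl33 (-0.71 to 0.78), scpl36 (-0.29 to 0.47), AT3G56540 (-0.23 to 0.026), BRS1 (-0.48 to 0.18) and AT4G36190 (-0.21 to 0.38).

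Over all loci tested, 1524 calls were for the meristem and 1492 for the leaf, 50.5% of the calls in the meristem. The share was 37.8% with median scaling (1187 and 1954), 68.2% with no scaling (2211 and 1031), 79.8% with spike-in scaling (3003 and 758) and 27.8% with normexp (252 and 655), where the median difference of all loci tested moved by -0.30, 0.42, 0.77 and -0.17 on the log2 scale. Under the adjusted t-test 961 and 1152 loci were called.

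Same-numbered replicates are not stated to share a batch, and with 2 pairs their deviations correlated at 0.0899, so the number was not taken as a pairing. With the replicate number as a block, 5 and 7 members were called, beside 1523 and 1491 of all loci. For the meristem 10 members passed and for the leaf 17, beside 26.1% and 20.9% of all loci. Of the sinapate loci 11 passed, and the median of the members stayed at -0.20. Signal over background limits the 20 members that were well above background on no array: no fold is given for them, including the 2 that passed the adjusted p (scpl28 and SCPL19).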

Other observations

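A probe of the array whose name gives a sequence accession in place of a locus is also described as a serine carboxypeptidase. It lay outside the 60 loci and read 1.12 and 1.85 in the meristem and 1.12 and 2.14 in the leaf. No array was well above background.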
